A study of Mus musculus with 16 samples.

Results

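The landscape of H3K9me2, histone H3 dimethylated at lysine 9, was described in small intestinal crypts of wild type (WT) mice. All 47065 regions of the deposited H3K9me2 peak table were taken, with their reads in 3 WT ChIP libraries (WT1, WT2 and WT3) and in 1 library of WT input, which is sonicated chromatin sequenced without an antibody. These are 4 of the 16 libraries of the series, which compared WT mice with mice lacking Smarcad1, a chromatin remodeling factor, in the intestinal epithelium for H3K9me2 and H3K9me3; the knockout columns were not used. The labels give the mice as C57BL/6, genotype wild type and cell type whole crypt isolate, and by the methods of the study the mice were male; an age is not given for these libraries. Whole crypt isolates hold all cells of the crypt and any cells carried along with it, so every value is an average over cell types. No label says whether the 3 libraries came from 3 mice, so their spread may be partly technical.

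H3K9me2 is deposited mainly by the methyltransferases G9a (Ehmt2) and GLP (Ehmt1) and read by chromodomain proteins of the HP1 family. It forms broad domains over gene-poor, late replicating and lamina-associated chromatin and over silent genes, where H3K9me3 marks more compact heterochromatin and repeats. In differentiated cells such domains often lie over genes that the lineage does not use.

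The MACS peaks behind the table were called once, on WT and knockout ChIP libraries together, so the position of a region is not evidence from WT mice alone. A region joined peaks that lay close together, and neighbouring regions were never nearer than 5100 bp. The covered share of a gene or chromosome below counts the gaps inside regions, while reads were counted in the peaks only. The table held 179733 peaks in regions that spanned 772.6 Mb, or 29.2% of the sequenced genome (GRCm38). The median width was 7050 bp, with quartiles of 2100 and 19800 bp. The regions of at least 30 kb were 16.2% of all regions and held 60.2% of the covered bases. The widest region, of 436.65 kb, lay over Npas3, which encodes a neuronal transcription factor, and the next by width included regions over Opcml, a neural cell adhesion gene, and Bmper, which encodes a regulator of BMP signaling. The libraries held 28985859 (WT1), 22662273 (WT2), 20012262 (WT3) and 11716581 (input) reads in regions, with medians of 249, 195, 173 and 101 reads per region.

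The bases under these regions were AT-rich, and that property separated 1 of the 3 libraries from the others, so examples are printed here. The central 200 bases are given, plus strand of GRCm38, with each CpG in capitals, for the regions with most input reads in the lowest and in the highest decile by GC content and for a pair of regions described further on.
Lowest GC decile, intron of Csmd3, chr15:47990751-47990950: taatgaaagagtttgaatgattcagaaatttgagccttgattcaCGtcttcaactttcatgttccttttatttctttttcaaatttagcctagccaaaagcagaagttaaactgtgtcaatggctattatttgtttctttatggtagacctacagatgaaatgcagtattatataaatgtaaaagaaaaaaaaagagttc
Lowest GC decile, outside annotated genes, chr10:16186626-16186825: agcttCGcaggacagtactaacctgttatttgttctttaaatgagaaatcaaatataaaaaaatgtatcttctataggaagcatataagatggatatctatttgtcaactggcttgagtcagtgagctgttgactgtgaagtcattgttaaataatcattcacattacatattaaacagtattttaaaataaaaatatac
Highest GC decile, intron of Spock1, chr13:57708651-57708850: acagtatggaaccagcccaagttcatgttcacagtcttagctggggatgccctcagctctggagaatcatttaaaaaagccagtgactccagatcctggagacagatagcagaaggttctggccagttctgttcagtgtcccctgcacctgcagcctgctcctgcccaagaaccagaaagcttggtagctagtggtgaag
Highest GC decile, outside annotated genes, chr5:116858151-116858350: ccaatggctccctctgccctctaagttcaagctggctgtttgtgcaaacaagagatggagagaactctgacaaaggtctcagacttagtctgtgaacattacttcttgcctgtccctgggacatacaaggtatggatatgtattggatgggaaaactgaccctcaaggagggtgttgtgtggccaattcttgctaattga
Smallest p against input, within Zfp981 and outside exons, chr4:146524701-146524900: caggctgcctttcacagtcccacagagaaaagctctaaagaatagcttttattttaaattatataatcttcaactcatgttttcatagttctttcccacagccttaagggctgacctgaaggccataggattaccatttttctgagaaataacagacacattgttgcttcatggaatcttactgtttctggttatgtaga
WT2 and WT3 above WT1, intron of Anks1b, chr10:89925951-89926150: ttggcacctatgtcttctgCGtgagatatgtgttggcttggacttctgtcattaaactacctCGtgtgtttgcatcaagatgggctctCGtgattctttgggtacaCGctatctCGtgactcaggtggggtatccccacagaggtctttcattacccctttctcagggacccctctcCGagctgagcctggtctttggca
The first pair of sequences had 29.5% and 28.5% GC with 1 CpG each, and the second pair had 51.5% and 46.5% GC with 0 CpG. Over all regions the covered bases held 39.2% GC and 5.49 CpG per kb, against 41.7% GC and 8.26 CpG per kb in the genome. The share of bases masked as repeats was 37.1% in regions and 36.4% in the genome, so the regions differed from the genome in base composition far more than in repeat share.

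The regions lay away from genes in general. Of the covered bases 24.9% lay in protein-coding genes, against 39.3% of the genome, and 2.01% were exonic. Regions covered 18.5% of the bases of protein-coding genes and 36.1% of the bases outside them. A region held 1803 of 21938 protein-coding gene starts (8.22%), and 26462 regions (56.2%) overlapped no annotated gene at all. Across 2366 autosomal windows of 1 Mb, the covered share had a median of 28.4% and ran from 0% at the 5th to 76.4% at the 95th percentile. Of these windows 30.3% were covered by under 5%, and 63 (2.66%) by at least 80%. The covered share went with low GC content (Spearman rho = -0.81) and with few protein-coding genes (rho = -0.71), over the 2366 windows, which are neighbours on the same chromosomes and no replicates. In the decile of windows with the lowest GC the median covered share was 62.8% with a median of 0 genes, in the fifth decile it was 29.5% with 5 genes, and in the decile with the highest GC it was 0.105% with 19 genes. The windows with most covered bases were chr9:28000001-29000000 (93.8%) over Opcml and Ntm, chr14:71000001-72000000 (91.5%), which holds no protein-coding gene, chr12:89000001-90000000 (90.4%) over Nrxn3, chr16:6000001-7000000 (90.3%) over Rbfox1, and chr12:53000001-54000000 (90.1%) over Akap6 and Npas3. Windows in the last 10 Mb of autosomes had a median covered share of 3.71% and a median GC of 44.6%, against 44.7% covered and 40.7% GC for windows 10 to 30 Mb from the centromeric end.

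Of 21951 protein-coding genes, 4386 (20%) had at least 1 base in a region, and 2130 (9.7%) had at least 50% of their bases in regions. These shares are the background for the gene lists, which describe the regions called on all 6 ChIP libraries and carry no test. The chemosensory receptor families stood far above it. Olfactory and vomeronasal receptors are used in sensory neurons, and taste receptors in taste cells and other chemosensory cells of epithelia. Of 1135 olfactory receptor genes, 864 (76.1%) had a region and 670 (59.0%) had at least 50% of their bases in regions. Among the chromosomes with over 100 of these genes, the share was 91.7% on chromosome 9 (121 of 132), 85.4% on chromosome 2 (251 of 294) and 75.8% on chromosome 7 (185 of 244). It was 83.0% on chromosome 17 (44 of 53) and lower on chromosomes 11 (36 of 82, 43.9%) and 4 (10 of 24, 41.7%), and none of the 9 genes on chromosome 15 had a region. Of 331 vomeronasal receptor genes 217 (65.6%) had a region, and of 38 taste receptor genes 26 (68.4%). The protocadherins of the clustered alpha, beta and gamma families, adhesion proteins that give neurons surface identities, had a region in 41 of 57 genes (71.9%).

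All 35 genes of a list of long neuronal and adhesion genes had a region, with a median covered share of 69.8% and a median gene length of 1211 kb. Of the deciles of protein-coding genes by length, the longest (median 186 kb) had a region in 58.5% of its genes. From the fifth decile (median 14.5 kb) the share went up with length at each step, from 10.5% to 22.5% in the ninth, while the shorter deciles lay between 14.0% and 23.1%. The genes with most covered bases were Lsamp (1666 of 2197 kb), Cntnap2 (1583 of 2245 kb), Dlg2 (1431 of 1973 kb), Nrxn3 (1399 of 1612 kb), Csmd1 (1352 of 1643 kb), Rbfox1 (1349 of 1526 kb), Lrp1b (1321 of 2058 kb), Ptprd (1272 of 2271 kb), Magi2 (1131 of 1478 kb) and Pcdh15 (1082 of 1550 kb). Most encode synaptic or cell adhesion proteins, and Rbfox1 encodes a neuronal splicing factor. Lsamp had 66568 (WT1), 54260 (WT2), 48109 (WT3) and 28306 (input) reads, and Rbfox1 had 54782, 38494, 33089 and 19905. Scaled as described below, their log2 ratios over input were -0.07, -0.01 and -0.01 for Lsamp and 0.15, -0.00 and -0.04 for Rbfox1, so the most covered genes stood close to the average region.

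**Figure D1:**
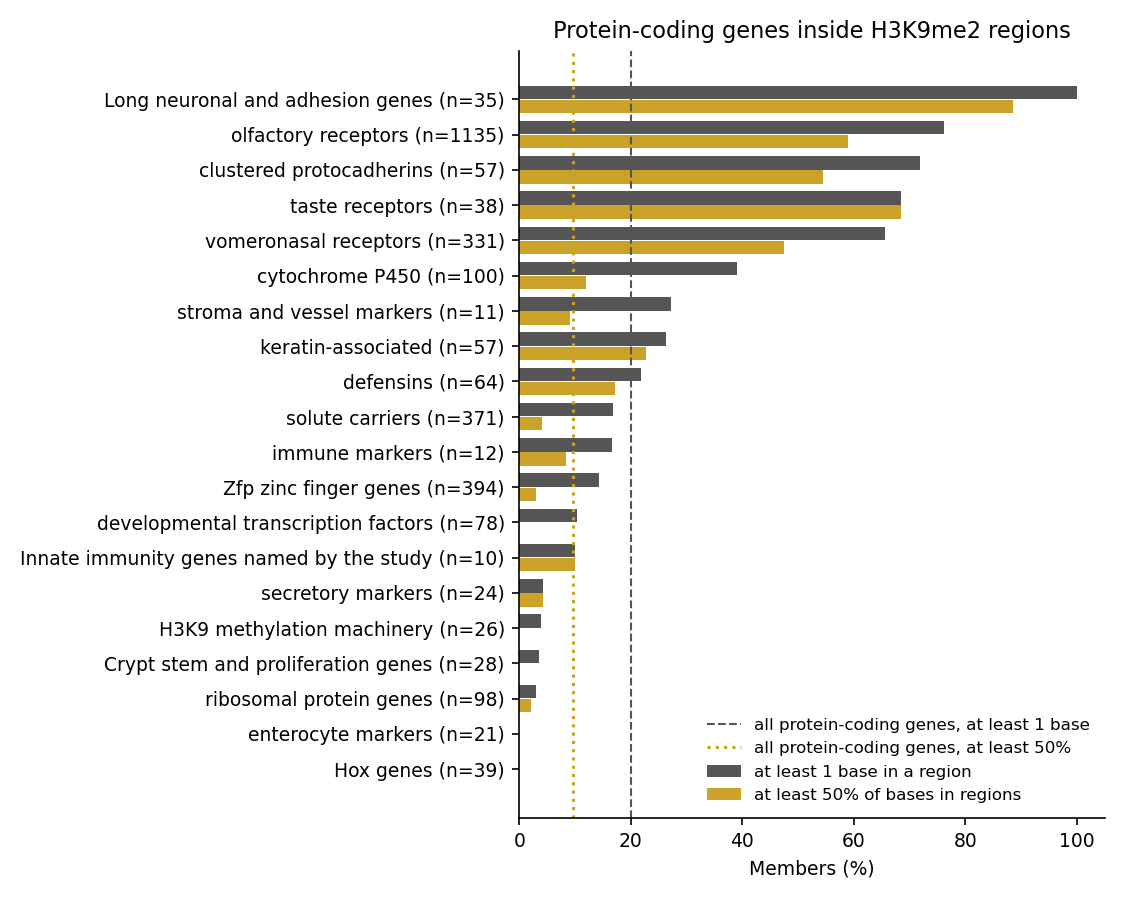
Share of the protein-coding genes of each list with at least 1 base in an H3K9me2 region (grey bars) or with at least 50% of their bases in regions (yellow bars), in percent of the members, with the 2 shares over all protein-coding genes as vertical lines. All 35 long neuronal and adhesion genes and 76.1% of the olfactory receptors had a region, and no Hox gene or enterocyte marker did.

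Few members of the lists of crypt, enterocyte and Hox genes had a region. None of 21 enterocyte markers and none of 39 Hox genes, which set position along the body axis, overlapped a region. Of 28 crypt stem and proliferation genes 1 did, Lgr5, the receptor that marks crypt base stem cells, with 0.546% of its bases. Of 98 genes matched by the symbol pattern for ribosomal proteins 3 did, and these were the pseudogene-like Rpl36a-ps1 and Rpl10-ps3 and the kinase gene Rps6ka6, which the pattern caught by its name. Of 78 developmental transcription factors 8 had a region and 0 had at least 50% of their bases in regions; the most covered was Tbx18, at 37.8%. Of 26 genes of the H3K9 methylation machinery 1 did, the demethylase gene Kdm4c, with 2.39% of its bases. The secretory list had 1 of 24, the tuft cell marker Dclk1, a gene also used in neurons, with 73.6% of its bases.

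The remaining lists lay between these extremes. Of 394 Zfp zinc finger genes 56 had a region (14.2%), and of 371 solute carriers 62 did (16.7%). Of 64 defensins 14 did (21.9%), among them alpha-defensins, which Paneth cells of the crypt produce: Defa25, Defa27 and Defa30 lay wholly in a region, and Defa29 by 28.2%. Of 57 keratin-associated genes 15 did (26.3%), and of 100 cytochrome P450 genes 39 did (39%). Among 10 innate immunity genes singled out in the study, 1 did: Tlr4, the receptor for bacterial lipopolysaccharide, with 74.3% of its bases. Its regions had 2824, 2046, 2007 and 1223 reads and log2 ratios of -0.10, -0.21 and -0.06. The immune list, 2 of 12, held Ptprc (CD45, on all leukocytes), with 52.3% of its bases, and Ms4a1 (a B cell gene), with 1.97%. The stromal and vessel list, 3 of 11, held Col3a1, with 71.6%, Col1a2, with 17.6%, and Cdh5, with 6.65%. The part of immune and stromal cells in these libraries was not tested.

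The level of the mark over input was taken as log2 of the share of a library's region reads that fell in a region, ChIP over input, with 0.5 reads added to each count. This scale sets the average over all regions to about 0, so a uniform enrichment of ChIP over input in regions is removed and cannot be read from it. A ratio above or below 0 says that the ChIP reads relative to the input reads were above or below the average region, and it can come from either side, since few input reads raise it as more ChIP reads do. The median over regions was 0.01 in WT1, 0.01 in WT2 and 0.01 in WT3. In the 23773 regions with at least 100 input reads, which held 91.8% of the input reads in regions, the mean of the 3 libraries had an SD of 0.12 over regions, where counting error alone gives 0.10. In the 2262 regions with at least 1000 input reads, the SD was 0.06 against 0.04 from counting. Of these deepest regions, 5% lay below -0.10 and 5% above 0.11, and 99.96% lay within 0.25 of 0. The differences between regions were thus small on this scale. In the deepest regions the spread of the mean was above the counting error. That mean includes the relation of WT1 to GC content described below, and its part in the spread was not tested.

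The edgeR quasi-likelihood F test of the 3 ChIP libraries against the input, two-sided with Benjamini-Hochberg adjustment, called 0 of 47065 regions (0%) at an adjusted p under 0.05. At an unadjusted p under 0.05 it held 1445 regions (3.07%), and DESeq2 called 0. For genes, with reads summed over their regions and at least 100 input reads required, edgeR called 0 of 3073 (0%), with 63 (2.05%) at an unadjusted p under 0.05. With 1 input library the input is assumed to vary as the ChIP libraries do. The counts depended on which libraries were kept. Without WT1, edgeR called 33 regions (0.0701%), 21 above and 12 below input, and 15 genes above and 7 below. Without WT3 it called 4 genes above (Tenm1, Frmpd4, Dmd and Col4a6) and 1 below (Zfp981), and 0 regions. Each such fit sets 2 ChIP libraries against 1 input with no replicate of its own, and its spread comes from those 2 libraries, so these calls are given as a sign of dependence on single libraries and not as support for a gene or region. With an offset that followed GC content in each library, all 3 libraries kept, it called 7 regions (0.0149%), 2 above and 5 below; all 7 were among the 33.

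WT1 differed from WT2 and WT3 in its relation to GC content. In regions with at least 100 input reads, the median log2 ratio of WT1 went from -0.20 in the lowest GC decile to 0.34 in the highest. The same medians went from -0.01 to -0.05 in WT2 and from -0.00 to -0.07 in WT3. The printed Csmd3 region had log2 ratios of -0.15 (WT1), 0.05 (WT2) and 0.02 (WT3), and the Spock1 region had 0.35, -0.01 and -0.05. The input plays no part in this contrast. The log2 ratio of WT1 to WT2 had a Spearman rho of 0.71 with GC over these 23773 regions and that of WT1 to WT3 had 0.72, while that of WT2 to WT3 had 0.04. The SD of log2 WT2 to WT3 over regions was 0.11, where counting gives 0.10, and the SD of log2 WT1 to WT2 was 0.17, where counting gives 0.09. The same held in 1425 autosomal windows of 1 Mb with at least 2000 input reads, where the SD of the log2 ratio was 0.11 for WT1, 0.04 for WT2 and 0.04 for WT3. The mean ratio of a region or gene includes this difference, so values below are given per library. What gave WT1 its GC relation was not tested.

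**Figure D2:**
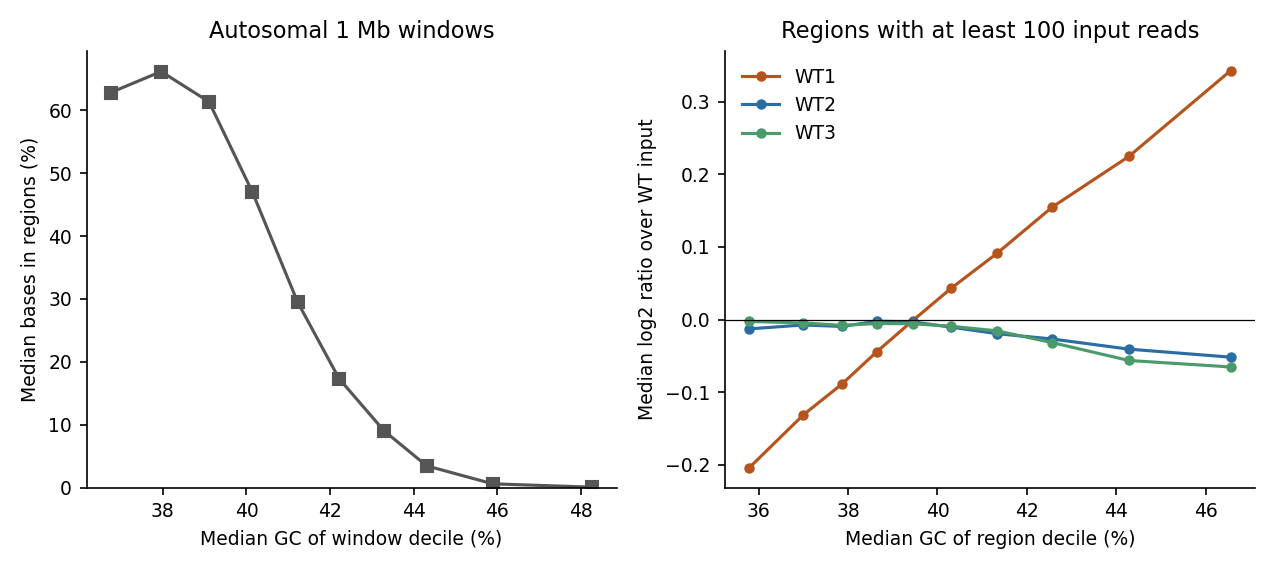
Left, median percent of bases in H3K9me2 regions against median GC content for deciles of the autosomal 1 Mb windows; right, median log2 ratio over WT input against median GC content for deciles of regions, for regions with at least 100 input reads, 1 line per library. The covered share was 62.8% in the lowest and 0.105% in the highest GC decile, and WT1 went from -0.20 to 0.34 while WT2 and WT3 stayed between 0.00 and -0.07.

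The autosomes were alike in level. The log2 ratio of summed reads ranged over the 19 autosomes from -0.03 to 0.05 in WT1, from -0.02 to 0.02 in WT2 and from -0.01 to 0.04 in WT3. The highest was chromosome 19, at 0.04 ± 0.02 (SD, n = 3), and the lowest chromosome 2, at -0.02 ± 0.01. The autosomes differed instead in how much of them lay in regions, from 23.5% on chromosome 11 and 24.1% on chromosome 19 to 37.7% on chromosome 18 and 41.2% on chromosome 3. This share went with a low GC content of the chromosome (Spearman rho = -0.79 over 19 chromosomes, a description).

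The X chromosome stood apart in both respects. Regions covered 1.25% of it, against 32.2% of the autosomes, and no window of 1 Mb on X was covered by more than 7.47%. Its 1756 regions had a median width of 450 bp, against 7650 bp on autosomes, and 79.7% of them were 1 peak. On chromosome Y there was 1 region, with 59, 63, 50 and 25 reads. The log2 ratio of summed reads on X was 0.75 in WT1, 0.67 in WT2 and 0.65 in WT3, 0.69 ± 0.06 (SD, n = 3). All 3 libraries lay above the range of every autosome. In regions of at most 600 bp the median was 0.79, 0.69 and 0.70 in the 3 libraries on X (1313 regions) and 0.37, 0.23 and 0.26 on autosomes (1760 regions). In regions of 3000 to 6000 bp it was 0.76, 0.63 and 0.68 on X (163 regions) and -0.01 in each library on autosomes (6446 regions). At like width, X regions held fewer input reads, with medians of 5 against 9 and of 13 against 73 in these classes. In regions with 1 to 5 input reads the medians were 1.20, 1.09 and 1.10 on X (742 regions) and 1.15, 1.01 and 1.01 on autosomes (264 regions), and with 6 to 10 input reads 0.48, 0.45 and 0.41 on X (672 regions) and 0.55, 0.39 and 0.41 on autosomes (1195 regions). With 11 to 20 input reads they were 0.45, 0.38 and 0.33 on X (266 regions) and 0.31, 0.19 and 0.20 on autosomes (3280 regions). With 21 to 50 input reads they were 0.56, 0.44 and 0.43 on X (59 regions) and 0.10, 0.03 and 0.03 on autosomes (8839 regions). The input count is the denominator of the ratio, so regions matched on it are drawn together by construction, and these classes do not say what the gap rests on. In regions of 1 peak of at most 600 bp, the ChIP reads per kb on X were 0.953 (WT1), 0.989 (WT2) and 0.986 (WT3) times those on autosomes, and the input reads per kb were 0.710 times. Over all regions of 1 peak, which were narrower on X (median 300 bp against 1800 bp), the same ratios were 1.25, 1.19 and 1.17 for the ChIP libraries and 0.724 for the input. Over regions of any number of peaks, the ratios were 0.781 (WT1), 0.737 (WT2), 0.725 (WT3) and 0.463 (input). The ChIP and input ratios thus moved with the set of regions taken, and in each set the input ratio was the lowest. The mice were male and carry a single X, and the part of copy number and of the way peaks were called in this gap was not tested.

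**Figure D3:**
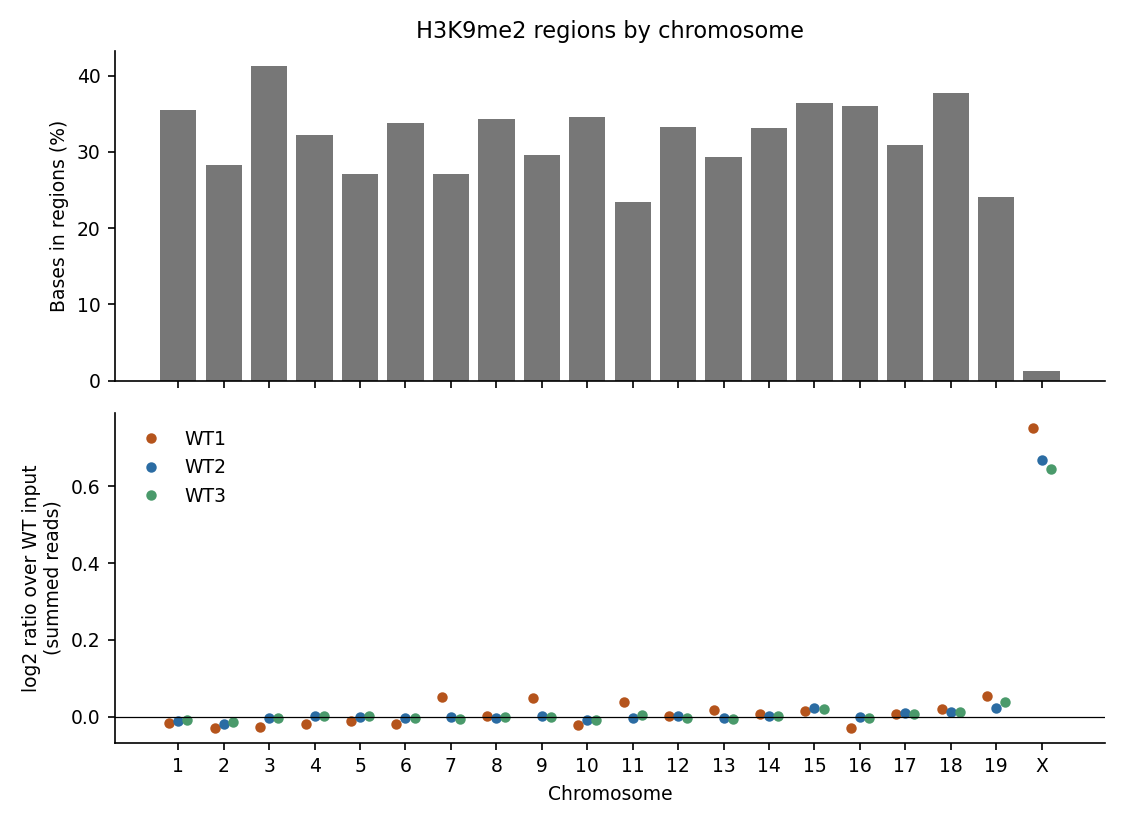
Upper panel, percent of sequenced bases in H3K9me2 regions for each chromosome; lower panel, log2 ratio of summed region reads over WT input, 1 point per ChIP library (chromosome Y, with 1 region, is left out). The autosomes lay between -0.03 and 0.05 and X between 0.65 and 0.75, with 1.25% of X in regions.

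Genes on X led the order of genes. Since no gene passed the threshold, the highest and lowest genes with all 3 libraries on 1 side of input are named without that criterion. Of the 12 highest, the first 7 were on X: Tenm1, Frmpd4, Gm45194, Eda, Rtl4, Col4a6 and Dmd. Tenm1, a teneurin adhesion gene, had 827 (WT1), 654 (WT2), 629 (WT3) and 190 (input) reads and log2 ratios of 0.81, 0.83 and 0.95. Dmd, the dystrophin gene, had 1278, 1001, 861 and 322 reads and log2 ratios of 0.68, 0.68 and 0.65, close to the X chromosome as a whole. Their regions were small parts of the genes, 3.31% of Tenm1 and 2.35% of Dmd. In edgeR their adjusted p was 0.264 each with all libraries, and both were called without WT1 and without WT3.

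Outside X, the highest genes were Olfr109, Ajap1, Cyp2a4, Speer4a and Slc22a30. Olfr109, an olfactory receptor gene on chromosome 17, had 381, 304, 268 and 106 reads and log2 ratios of 0.53, 0.56 and 0.56 (edgeR adjusted p = 0.999). Its region, chr17:37465051-37472550, overlaps exons of the gene. Slc22a30, an organic anion transporter gene on chromosome 19, had 1300, 964, 885 and 377 reads and log2 ratios of 0.48, 0.40 and 0.46 (edgeR adjusted p = 0.561). Cyp2a4, a cytochrome P450 gene, had 414, 242, 267 and 108 reads and log2 ratios of 0.63, 0.21 and 0.53, with its whole length in a region. Speer4a, of a testis-expressed family, had 933, 544, 511 and 232 reads, and its log2 ratios of 0.70, 0.28 and 0.37 were uneven among the libraries. Ajap1, which encodes an adherens junction protein, was more uneven still, at 0.86, 0.30 and 0.23.

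The low end of the genes is given as values only. Reads of a gene are those of the whole regions that overlap it, also where they run past the gene. A gene with only narrow regions thus reaches 100 input reads only where their input is high. Olfr1215 had 193, 194, 205 and 137 reads in its region, of which 2.973 kb lay in the gene, and log2 ratios of -0.81, -0.45 and -0.19. Itgb8, the integrin beta 8 gene, had 323, 302, 283 and 208 reads and log2 ratios of -0.67, -0.41 and -0.33. Irak3, which encodes a negative regulator of Toll-like receptor signaling, had 236, 152, 138 and 114 reads and log2 ratios of -0.26, -0.54 and -0.50. Nr3c1, the glucocorticoid receptor gene, had 257, 195, 167 and 131 reads and log2 ratios of -0.34, -0.38 and -0.42. Regions covered 4.41% of Nr3c1, 7.94% of Irak3 and 10.8% of Itgb8, so each value describes a small stretch of the gene. Each of these 4 genes had an edgeR adjusted p of 0.999. Ptprc, the leukocyte gene, had 3935, 3043, 2776 and 1805 reads and log2 ratios of -0.18, -0.20 and -0.15, and it was among the 7 genes called below input without WT1, with an edgeR adjusted p of 0.999 with all libraries. The medians over all 3073 genes were 0.01 (WT1), -0.00 (WT2) and 0.00 (WT3). In the same order, the 756 olfactory receptors with at least 100 input reads had medians of -0.04, 0.02 and 0.03, and 190 vomeronasal receptors had -0.02, 0.03 and 0.03. In both families WT1 lay on the other side of 0 from WT2 and WT3. The 25 taste receptors had -0.05, 0.03 and -0.00, the 35 protocadherins 0.06, 0.04 and 0.01, and the 34 long neuronal genes -0.06, -0.01 and -0.02. Among vomeronasal receptors the highest was Vmn1r77, with 440, 320, 326 and 131 reads and log2 ratios of 0.44, 0.33 and 0.54. The lowest were Vmn1r216 and Vmn1r217, which share a region, with 179, 183, 143 and 103 reads and log2 ratios of -0.51, -0.13 and -0.30. Genes of one cluster often share a region in this way, so list members are not independent.

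The 7 regions called with the GC offset were these, named after their values were seen. Above input were chr14:44506201-44574150, of 30 peaks over BC061237 and Gm17093, and chrX:129564451-129578400, of 5 peaks outside annotated genes. The chromosome 14 region had 1806, 1368, 1157 and 539 reads, with log2 ratios of 0.44, 0.39 and 0.33 and an adjusted p of 0.0146 with the offset in edgeR. It lies in the window with the highest ratio among the 1425 autosomal windows of 1 Mb with at least 2000 input reads, chr14:44000001-45000000, at 0.31, 0.23 and 0.25 in the 3 libraries, which holds Ang6 and Ear2 of the ribonuclease family. That window also holds genes named Gm8212, Gm8220 and Gm8229, and how reads were placed among them was not tested. The X region had 170, 126, 96 and 21 reads (95% Poisson interval of the input count 13.0 to 32.1, counting error only). All 5 regions below input were single peaks on chromosome 4: chr4:3061801-3071700 and chr4:3224401-3230400 outside annotated genes, chr4:61833751-61855800 over exons of Mup5, a major urinary protein gene, chr4:146512501-146537100 over exons of Zfp981, and chr4:147773551-147785250 over Zfp984. The Zfp981 region, with the smallest p of all, had 1984, 1616, 1592 and 1184 reads and log2 ratios of -0.56, -0.50 and -0.35 (edgeR adjusted p = 0.99967, and 6.82e-07 with the offset). In these 5 single peaks the input held between 33.0 and 48.1 reads per kb and WT2 between 46.0 and 65.7, against 19.4 and 37.0 in the autosomal regions of 1 peak. Both ChIP and input were thus above other single peaks there, and the input by more. The Zfp984 region lies in the window with the lowest ratio among the same windows, chr4:147000001-148000000, which also holds Rex2, Zfp991, Zfp988 and Zfp985, at -0.28, -0.21 and -0.22. The Mup genes and the zinc finger genes of this cluster have near-identical copies. How reads were placed among the copies was not tested, and these values are uncertain. The next lowest window, chr13:114000001-115000000 over the integrin genes Itga1 and Itga2, stood at -0.13, -0.18 and -0.20.

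The minimum of 100 input reads bears on which regions can be lowest. A narrow region passes it only with a high input, and in the fourth width decile (median 3450 bp) the median of the mean log2 ratio was -0.02 over all 4706 regions but -0.38 in the 46 that passed. The lowest regions are therefore given as values only. The lowest was chr12:119186101-119193450 over an exon of Itgb8, with 257, 253, 231 and 188 reads and a mean log2 ratio of -0.62 ± 0.21 (SD, n = 3). Of the 10 lowest, with no more than 1 taken per Mb, only chr13:82194751-82200450, over the noncoding Gm48155, held 2 peaks, with 210, 182, 125 and 124 reads. In the 2 highest regions WT2 and WT3 stood far above WT1.

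The first of these, over Gm26376 on chromosome 17, belonged to a stretch of regions that began at Esp38, a gene of the exocrine gland secreting peptides, which act as pheromones. The Esp38 region, chr17:39933451-39950700, had 173 (WT1), 293 (WT2), 282 (WT3) and 70 (input) reads, and the log2 ratios were -0.01, 1.11 and 1.23. The Gm26376 region, chr17:40048351-40074900, had 326, 504, 495 and 122 reads, with log2 ratios of 0.11, 1.09 and 1.24. WT2 and WT3 thus held more reads than WT1, the deepest of the libraries. From Esp38 to chr17:40138501-40153050, WT2 and WT3 were above WT1 in each region. A wide region before the stretch, chr17:39857701-39888000, had log2 ratios of -0.04, -0.05 and 0.02, and that over Pgk2 after it, chr17:40188301-40211550, had 0.30, 0.24 and 0.26, with no gap between the libraries. Per kb of region width, the Esp38 region held 10.03 (WT1), 16.99 (WT2), 16.3 (WT3) and 4.06 (input) reads, against 30.9, 24.0, 22.1 and 12.8 in that wide region before the stretch. A smaller region nearer to the stretch, chr17:39893551-39899400, held 17.6, 13.5, 9.57 and 7.35 reads per kb. The input and WT1 in the Esp38 region were below both, while WT2 and WT3 lay between the values of these neighbours. The widths include gaps between peaks, whose share can differ between regions, so these densities do not say whether ChIP or input reads set the ratio. With all 3 libraries both regions had an edgeR adjusted p of 0.99967, and both were called without WT1. WT1 followed the input in much of this stretch and WT2 and WT3 did not. WT1 stood above the input at chr17:40030051-40042650 (log2 ratio 0.42) and at chr17:40138501-40153050 (0.54). A difference between libraries in the mark and one in their DNA cannot be told apart from these reads.

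**Figure D4:**
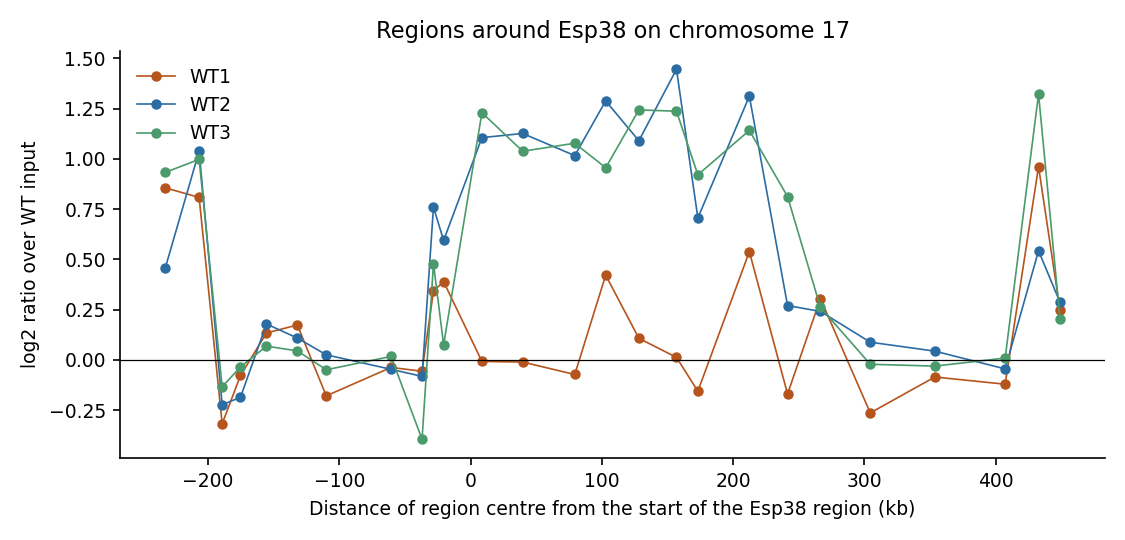
Log2 ratio over WT input of the H3K9me2 regions around Esp38 on chromosome 17 in WT1, WT2 and WT3, against the distance in kb of the region centre from the start of the Esp38 region. From 0 to about 200 kb WT2 and WT3 lay near 1 while WT1 lay mostly near 0, and in the wide regions on either side the 3 libraries lay close together.

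The second, chr10:89902051-89950050 in an intron of Anks1b, a gene of postsynaptic proteins, showed the same split. It had 834, 1211, 1116 and 309 reads and log2 ratios of 0.12, 1.02 and 1.08, with an edgeR adjusted p of 0.99967, and was called without WT1. The neighbouring region in the same gene to its left, chr10:89882851-89893800, had -0.23, 0.74 and 0.68. The next region to its right, chr10:89964301-89972400, had -0.27, 0.05 and 0.09, a smaller gap of the same sign, and the wider chr10:89980351-90023100 after it had 0.00, 0.02 and 0.16. Per kb of width, the Anks1b region held 17.4, 25.2, 23.3 and 6.44 reads. That wider region held 33.1, 26.2, 25.5 and 13.4, and the one to the left 8.13, 12.5, 10.6 and 3.84. The density of the Anks1b region thus lay between these neighbours in the input and in each ChIP library. WT1 and the input were far below the wider region, and WT2 and WT3 were close to it. As around Esp38, these densities include gaps between peaks and do not say which reads set the ratio. The GC content of the Anks1b region, 40.1%, and of the Esp38 region, 35.8%, lay on either side of that of all covered bases. Of the 33 regions called without WT1, 13 lay on chromosome 17, and 7 of the 12 below input lay on chromosome 4.

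The ratio also depended on the depth of the input. The median of the mean log2 ratio was 1.09 in 1006 regions with 1 to 5 input reads, 0.43 in 1867 with 6 to 10, 0.22 in 3546 with 11 to 20, and 0.04 in 8899 with 21 to 50. Above that it lay between -0.03 and 0.01. Each library had its highest median in the class of 1 to 5 reads, at 1.18, 1.08 and 1.10. The input count sits in both measures, so a relation of this sign is built into the comparison. A further 14 regions had 0 input reads, which by the one-sided limit allows up to 3; of these, chrX:57073351-57074250 had most reads in WT1, with 33, 24 and 30, and no fold is given.

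**Figure D5:**
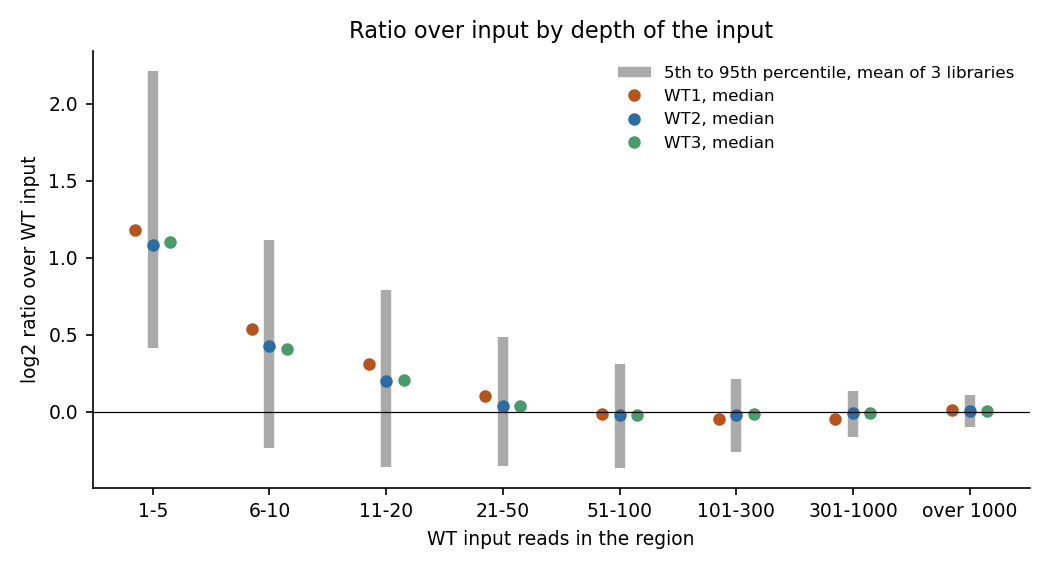
Log2 ratio over WT input against the number of WT input reads in the region, as the median of each library (points) and the 5th to 95th percentile of the mean of the 3 libraries (grey bars). The median fell from about 1.1 at 1 to 5 reads to about 0 above 50 reads, and the percentile range narrowed with depth.

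H3K9me3 peaks lay within the same domains more often than outside them. They covered 34.8% of the bases in H3K9me2 regions and 7.73% of the other bases, and 64.9% of the 212313 H3K9me3 peaks had their midpoint in an H3K9me2 region. The H3K9me3 read count per peak was alike inside and outside these regions. Its median log2 value was 5.02 against 5.06 in WT replicate 1, 5.01 against 5.05 in replicate 2 and 5.02 against 5.06 in replicate 3. The authors had matched the distributions of the libraries before this. The counts were not scaled to peak width, and the median width of H3K9me3 peaks was 1500 bp inside and 1350 bp outside. In turn, H3K9me2 regions with at least 50% of their bases in H3K9me3 peaks (9470 with at least 100 input reads) had median H3K9me2 log2 ratios of -0.09, -0.02 and -0.02. Those without any H3K9me3 peak (5227) had -0.01, -0.03 and -0.02, so WT2 and WT3 showed no gap by H3K9me3 overlap and WT1 did.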

How the data were processed

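Per the methods of the study, paired reads of 100 bases were trimmed with Trim Galore 0.4.4, mapped to GRCm38 with Bowtie2 2.3.2 and, in SeqMonk, filtered on mapping quality (20 or more), mate distance (up to 1500 bp) and duplicates. MACS peaks (fragment size 300) were called on all ChIP libraries against both inputs. The deposited H3K9me2 table gives a signal averaged over the peaks of each region; multiplied by the number of peaks it gave whole reads (largest deviation 0.001). A shorter deposited table held read counts of single peaks; all 12 counts compared were not above the sum of their region. For H3K9me3 the authors gave log2 counts after matching distributions. Columns of knockout libraries, 8 columns of standard deviations and the p-values of the authors' own tests were not used.

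Groups came from sample titles. Region sums, and sums over the regions of each protein-coding gene of GENCODE vM21, were compared with the WT input by the edgeR 4.0.16 quasi-likelihood F test (robust; library size = reads in regions; two-sided; Benjamini-Hochberg adjusted p under 0.05), with DESeq2 1.42.0 as an alternative. The fit was tested on simulated data. Chromosome, window and GC values are descriptions without a test. Gene lists and families were matched by symbol. The rule for named regions and genes took those past the threshold, with at least 100 input reads and all 3 libraries on 1 side, by highest and lowest mean log2 ratio, 1 Mb windows with at least 2000 input reads by the same order, the genes and windows with most covered bases, and the extreme members of the lists; where nothing passed the threshold, that criterion was dropped after the values were seen. The stretch around Esp38 was also chosen after the values were seen. The share of genes at least 50% covered was added after seeing the data. Members and lists were chosen with earlier results of these data known. Sequences were read from the GRCm38.p6 assembly. Intervals and the limit for 0 reads cover counting error only.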

Additional observations from a re-analysis of the deposited data

How the results depend on the processing

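The count of regions called, 0 above and 0 below input, was the same under TMM or DESeq2 size factors, the DESeq2 test, at least 100 input reads, at least 2 peaks, autosomes only and both stricter thresholds. The GC-dependent offset gave 2 above and 5 below. Leaving out 1 library gave 0 to 21 regions above and 0 to 12 below, and 0 to 15 genes above and 0 to 7 below; the calls came without WT1, and for genes also without WT3 (4 above, Tenm1, Frmpd4, Dmd and Col4a6, and 1 below, Zfp981). For genes, TMM, no minimum of input reads, the deposited gene names and an adjusted p under 0.01 gave 0 and 0. The X ratio of 0.69 was 0.66 to 0.71 when 1 library was left out and 0.69 as a median over regions. The GC difference, highest minus lowest decile, of 0.26 was 0.15 with at least 100 input reads and 0.07 to 0.34 when 1 library was left out, an alternative chosen after seeing the data; the lowest value is the one without WT1. With 5 reads added to each count in place of 0.5, the median log2 ratio per region went from 0.00451 to -0.0286 and the SD over regions from 0.304 to 0.209, since a larger added count pulls regions with few reads toward 0. No paired analysis was possible because the libraries were tested against 1 WT input library, which has no replicate numbers to share. The single input limits all ratios: its counting error and any feature particular to it enter all 3 libraries alike.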
